A study of Mus musculus with 14 samples.

Results

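The coagulation and fibrinolysis genes described here are those that start clotting (F3), hold it in check (Tfpi, Thbd and Procr), activate plasminogen (Plat and Plau, with the receptor Plaur) or act as adhesive proteins of platelets and vessel wall (Thbs1 and Vwf). Members were all probes whose gene symbol, current or older, is one of these 9 genes. Of 19621 probes on the array, 8 were members, 1 for each of 8 genes, and no probe names Vwf, which was not analysed here. The measurements came from lungs of 14 mice on mouse arrays with a single dye, 1 array per animal. The groups were 4 jnk1-/- mice after mechanical ventilation, 3 jnk1-/- control mice, 4 wild-type mice after mechanical ventilation and 3 wild-type control mice. The jnk1-/- mice lack JNK1, a stress-activated kinase encoded by Mapk8, in every cell of the body. All animals were adult and, by the paper, of C57/BL6 background. Wild-type mice were bought from Jackson Laboratory, whereas the jnk1-/- line was made at Yale University and has a gray coat in place of black. Differences between genotypes therefore cannot be told apart from differences of mouse source. Ventilated mice were anaesthetised and received a tidal volume of 10 ml/kg with an end-expiratory pressure of 2 cmH2O for 8 hours in room air through a tracheostomy. Control mice were killed directly after anaesthesia, so the hours of anaesthesia, the paralysing drug and the surgery cannot be told apart from ventilation. The study asked how lungs without JNK1 differ from wild-type lungs in their expression response to ventilation.

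Clotting in tissue starts when tissue factor, the product of F3, meets factor VII in plasma, and tissue factor pathway inhibitor (Tfpi) blocks this step. Thrombomodulin (Thbd) and the endothelial protein C receptor (Procr) sit on endothelium and let thrombin activate the anticoagulant protein C. Tissue-type plasminogen activator (Plat) and urokinase (Plau) turn plasminogen into plasmin, which dissolves fibrin, and Plaur holds urokinase at the cell surface. In injured lung, fibrin forms in the air spaces, and the balance of tissue factor and plasminogen activation is known to set how much of it persists. JNK phosphorylates c-Jun, a subunit of the transcription factor AP-1.

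Values are log2 intensities after normalization of all arrays together, and a fold change is the difference of group means on that scale. Two-sided tests come from limma, fitted over all 19621 probes with Benjamini-Hochberg adjustment, and a gene is called where the adjusted p is under 0.05. Array medians lay between 5.74 and 5.87 after normalization, and each array correlated with the others of its group at a mean r of 0.903 to 0.945 across probes. Wild-type control replicates 2 and 3 had 10.7% and 6.98% of probes at the lowest deposited value, against 1.86% to 4.52% on the other arrays. The lung markers Sftpb (mean 10.2) and Ager (mean 11.92) were bright on all arrays. The endothelial marker Pecam1 averaged 7.9 (7.18 to 8.57), whereas Cdh5, another endothelial marker, was dim (mean 1.96). The probe of Mapk8 averaged 2.75 ± 1.11 (SD, n = 4) in ventilated jnk1-/- lungs, 1.55 ± 1.70 (SD, n = 3) in jnk1-/- controls, 3.64 ± 1.13 (SD, n = 4) in ventilated wild-type lungs and 3.00 ± 0.42 (SD, n = 3) in wild-type controls. The position of that probe relative to the deletion is unknown here, and it sat at the floor of the authors' own table (3.12) on many arrays. The jnk1-/- control lungs stood apart in another way: 7 of 7 skeletal muscle markers and 4 of 5 measured squamous epithelium markers were higher there than in wild-type controls. Summed over the list, skeletal muscle markers gave log2 levels of 12.98 to 13.47 in jnk1-/- controls, against 8.51 to 8.84 in wild-type controls. Those markers were low in ventilated lungs of both genotypes, at 7.80 to 8.12 in jnk1-/- mice and 8.08 to 8.99 in wild-type mice. As the RNA came from whole tissue of the right lung, fewer cells of a type and less RNA per cell cannot be told apart.

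The promoter table gives a window for 4 of the 9 members, which reaches from 250 bases before to 50 bases after an annotated start (RefSeq, GRCm38.p6). The windows of F3, Plaur and Procr are shown because results below turn on these members and because all 3 hold the AP-1 letters TGANTCA. Plat, on which the results turn too, has no window in the table, and neither do Plau, Thbd, Thbs1 and Vwf. As AP-1 letters were part of that choice, their share over all windows, given below, is background and not a test. Capitals mark AP-1 (TGANTCA), EGR (GCGNGGGCG), GC box (GGGCGG) and TATA box (TATAAA) letters found on either strand, and CRE letters (TGACGTCA) were searched too and not found.
F3, chr3:121723287-121723586, plus strand: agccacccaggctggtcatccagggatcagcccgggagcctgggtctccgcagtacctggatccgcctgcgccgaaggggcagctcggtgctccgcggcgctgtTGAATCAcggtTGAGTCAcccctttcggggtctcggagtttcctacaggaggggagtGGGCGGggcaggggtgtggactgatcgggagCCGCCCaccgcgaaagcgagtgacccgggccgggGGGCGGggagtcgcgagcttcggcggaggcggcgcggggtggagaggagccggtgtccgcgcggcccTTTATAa
Plaur, chr7:24462233-24462532, plus strand: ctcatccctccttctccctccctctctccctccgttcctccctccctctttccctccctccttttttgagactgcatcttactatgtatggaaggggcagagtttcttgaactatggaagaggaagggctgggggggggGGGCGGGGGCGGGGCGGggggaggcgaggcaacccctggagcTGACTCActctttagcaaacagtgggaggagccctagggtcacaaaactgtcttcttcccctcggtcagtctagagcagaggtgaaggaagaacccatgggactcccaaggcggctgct
Procr, chr2:155750967-155751266, plus strand: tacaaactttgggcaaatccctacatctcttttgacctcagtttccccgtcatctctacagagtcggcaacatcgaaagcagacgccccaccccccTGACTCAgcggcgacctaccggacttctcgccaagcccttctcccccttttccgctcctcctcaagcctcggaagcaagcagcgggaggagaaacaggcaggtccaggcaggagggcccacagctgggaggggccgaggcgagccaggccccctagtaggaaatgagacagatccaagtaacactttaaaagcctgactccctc
With the start as position 0, F3 had TGAATCA from -146 to -140 and TGAGTCA from -135 to -129. Plaur had TGACTCA from -69 to -63, and Procr had TGACTCA from -154 to -148. In Plaur the EGR letters from -109 to -101 overlap GC boxes. AP-1 letters stood in 7.81% of all 32851 windows of the table, EGR letters in 5.55%, GC box letters in 35.7%, TATA box letters in 13.6% and CRE letters in 1.79%. Tfpi has 2 windows in the table, neither with AP-1 letters. A match is a stretch of letters and was not tested as a binding site.

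Mechanical ventilation was accompanied by higher F3, Plaur and Plat in both genotypes. Averaged over the genotypes, F3 was 3.97-fold higher in ventilated than in control lungs (log2 1.99, SE 0.21, limma adjusted p = 0.000151), Plat 4.74-fold (log2 2.24, SE 0.29, limma adjusted p = 0.000483) and Plaur 3.63-fold (log2 1.86, SE 0.28, limma adjusted p = 0.00119). These were 3 of 8 members, where 9.19% of all probes were called higher and 6.74% lower in that comparison. No member was called lower.

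Tissue factor, which starts the extrinsic pathway, had F3 values of 9.83, 10.29, 10.73 and 10.17 in ventilated jnk1-/- lungs, against 7.97, 8.43 and 7.90 in jnk1-/- controls. In ventilated wild-type lungs F3 had 9.32, 9.64, 10.42 and 9.86, against 8.23, 7.58 and 8.16 in wild-type controls. Every ventilated lung was above every control lung. The fold change was 4.45 in jnk1-/- lungs (log2 2.15, SE 0.29, 95% interval 1.51 to 2.80, limma adjusted p = 0.00123) and 3.54 in wild-type lungs (log2 1.82, SE 0.29, 1.18 to 2.46, limma adjusted p = 0.00737). Between the control groups, F3 was 0.11 log2 units higher in jnk1-/- than in wild-type lungs (-0.58 to 0.80).

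**Figure D1:**
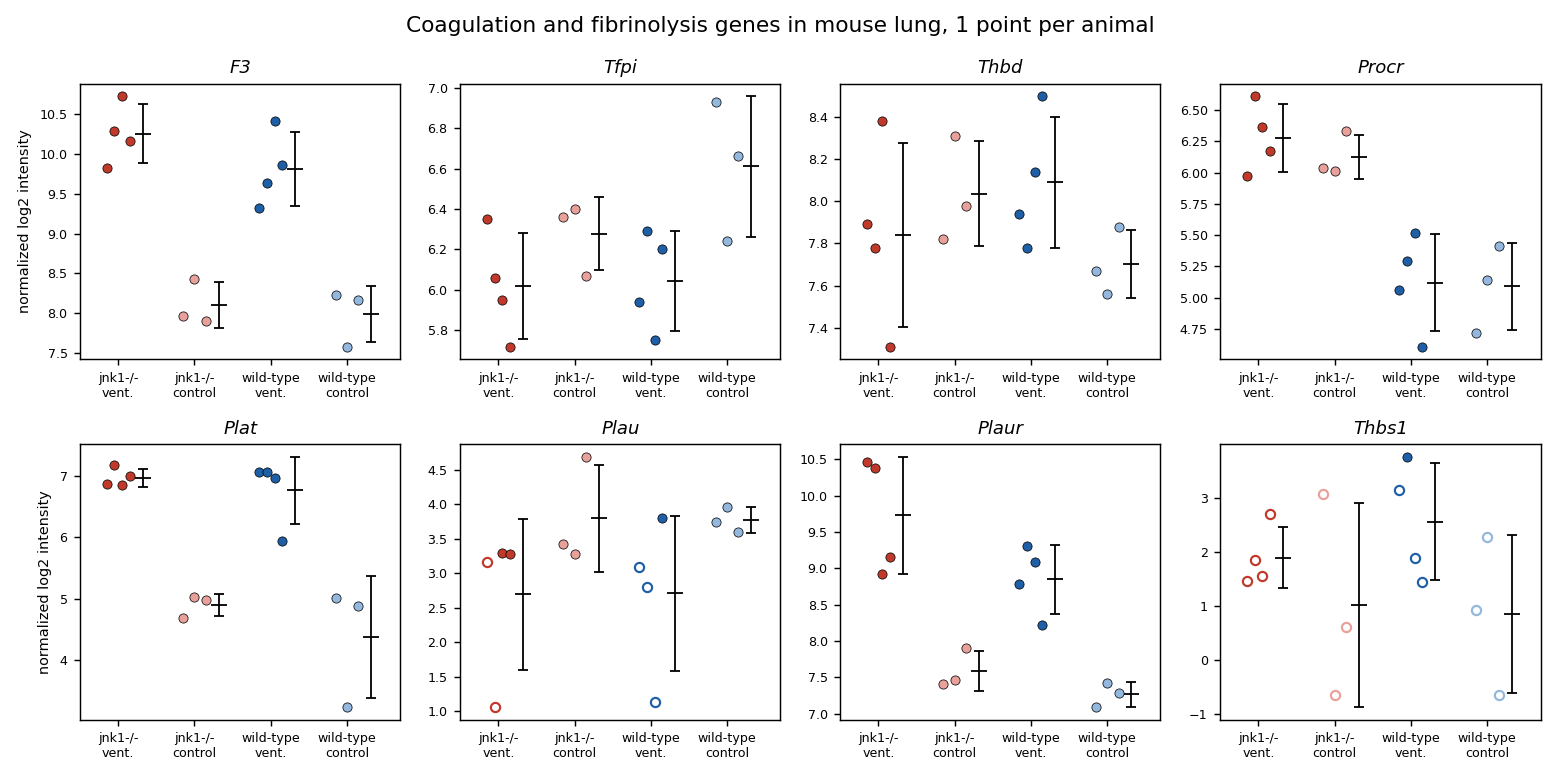
Normalized log2 intensity (vertical axis) of the 8 measured members on each of 14 arrays, by group on the horizontal axis; open points were at the floor of the authors' table, and bars give mean and SD. For F3, Plaur and Plat the ventilated arrays lie above the control arrays in both genotypes, and for Procr the jnk1-/- arrays lie above the wild-type arrays.

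Plaur, the urokinase receptor, had 10.46, 10.38, 8.92 and 9.15 in ventilated jnk1-/- lungs, against 7.41, 7.46 and 7.90 in jnk1-/- controls. It had 8.78, 9.31, 9.09 and 8.22 in ventilated wild-type lungs, against 7.09, 7.42 and 7.29 in wild-type controls. Ventilated lungs again lay above all controls, and in the jnk1-/- group replicates 1 and 2 were far above replicates 3 and 4. The fold change was 4.40 in jnk1-/- lungs (log2 2.14, SE 0.39, 1.29 to 2.99, limma adjusted p = 0.00559) and 3.00 in wild-type lungs (log2 1.58, SE 0.39, 0.73 to 2.44, limma adjusted p = 0.0484). The wild-type value was close to the threshold: it was called in 7 of 19 alternatives, and with 1 array left out only without ventilated replicate 4 (limma adjusted p over the 7 such fits, 0.0446 to 0.125).

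Plat, the main plasminogen activator of endothelium, had 6.88, 7.18, 6.86 and 7.0 in ventilated jnk1-/- lungs, against 4.68, 5.02 and 4.97 in jnk1-/- controls. It had 7.08, 7.08, 6.97 and 5.95 in ventilated wild-type lungs, against 5.01, 3.22 and 4.88 in wild-type controls. Groups did not overlap in either genotype, and wild-type ventilated replicate 4 and control replicate 2 were the low arrays of their groups. The fold change was 4.24 in jnk1-/- lungs (log2 2.09, SE 0.40, 1.21 to 2.97, limma adjusted p = 0.00738) and 5.28 in wild-type lungs (log2 2.40, SE 0.40, 1.52 to 3.28, limma adjusted p = 0.00907).

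In jnk1-/- lungs 3 of 8 members were called higher after ventilation, against 7.04% of all probes called higher and 5.06% called lower. In wild-type lungs 3 of 8 members were called higher, against 2.20% of all probes called higher and 1.23% called lower. The same 3 members were those whose ventilated arrays all exceeded the control arrays, which held for 12.6% of all probes in jnk1-/- lungs and 12.5% in wild-type lungs. The median fold change over the 8 members was 0.51 log2 units in jnk1-/- lungs, where that over all probes was -0.04. In wild-type lungs it was 0.99, where that over all probes was 0.11. Both member medians include Thbs1, which was at the floor of the authors' table on 13 arrays. With Thbs1 left out, the middle value was 0.15 (Procr) in jnk1-/- lungs and 0.39 (Thbd) in wild-type lungs. When wild-type control replicates 2 and 3 were both left out, 1 wild-type control array remained, assumed to vary like the arrays of the other groups. The wild-type fold changes were log2 1.58 (F3), 1.76 (Plaur) and 1.76 (Plat), and 0 of 8 members were called (limma adjusted p of 0.176, 0.300 and 0.106), in a fit that called 152 of all probes, against 673 with all arrays.

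Neutrophil markers also differed between ventilated and control lungs. Of 9 measured, 3 were called higher and 1 lower after ventilation in jnk1-/- lungs, and 4 higher in wild-type lungs. Summed over the list, their log2 level was 13.29 to 14.89 in ventilated jnk1-/- lungs, against 10.94 to 11.15 in jnk1-/- controls, and 14.08 to 14.79 in ventilated wild-type lungs, against 11.54 to 12.19 in wild-type controls. In jnk1-/- lungs 7 of 7 skeletal muscle and 5 of 5 squamous epithelium markers were lower after ventilation, and 5 of 10 smooth muscle and fibroblast markers were higher. B cell markers were lower after ventilation for 3 of 3 in jnk1-/- lungs and 2 of 3 in wild-type lungs. Their summed log2 level was 8.01 to 8.66 in ventilated jnk1-/- lungs, against 9.76 to 10.12 in jnk1-/- controls, and 7.84 to 8.52 in ventilated wild-type lungs, against 9.28 to 9.72 in wild-type controls. The part of these cell types in the values of F3, Plaur and Plat was not tested.

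**Figure D2:**
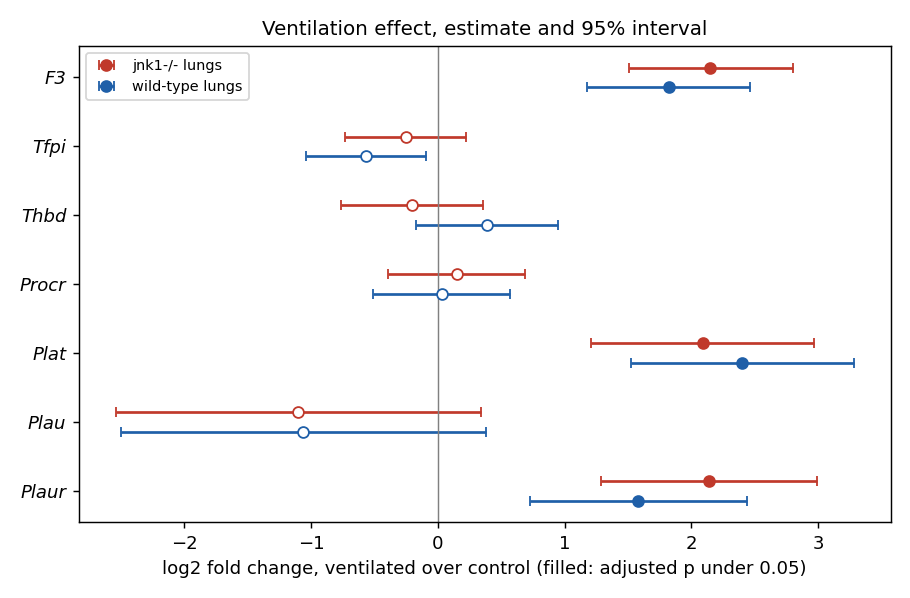
Log2 fold change of ventilated over control lungs (horizontal axis) for 7 members, in jnk1-/- and wild-type lungs, with 95% intervals from limma; filled points have an adjusted p under 0.05 and Thbs1 is left out because it was near its floor. F3, Plat and Plaur lie between 1.58 and 2.40, and no other member is filled.

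The genes that hold clotting in check were not called after ventilation. Thrombomodulin (Thbd) averaged 7.84 ± 0.44 in ventilated jnk1-/- lungs and 8.04 ± 0.25 in jnk1-/- controls, and 8.09 ± 0.31 in ventilated wild-type lungs and 7.70 ± 0.16 in wild-type controls (SD, n = 4 ventilated and 3 control). The ventilation effect on Thbd was -0.20 in jnk1-/- lungs (-0.76 to 0.36, limma adjusted p = 0.691) and 0.39 in wild-type lungs (-0.17 to 0.95, limma adjusted p = 0.437). Tfpi had 6.35, 6.06, 5.95 and 5.72 in ventilated jnk1-/- lungs, against 6.36, 6.40 and 6.07 in jnk1-/- controls. In ventilated wild-type lungs Tfpi had 5.94, 6.29, 5.75 and 6.20, against 6.93, 6.24 and 6.66 in wild-type controls. Groups overlapped in both genotypes, and the effect was -0.25 in jnk1-/- lungs (-0.73 to 0.22, limma adjusted p = 0.519) and -0.57 in wild-type lungs (-1.04 to -0.09, limma adjusted p = 0.170). Averaged over the genotypes it was -0.41 log2 units (-0.75 to -0.07, limma adjusted p = 0.0931), short of the threshold. The intervals of Thbd and Procr leave out a change of 1 log2 unit in either genotype.

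Urokinase (Plau) was dim, and 5 of 14 arrays were at the floor of the authors' table. Its values were 3.16, 1.06, 3.30 and 3.28 in ventilated jnk1-/- lungs, against 3.43, 3.28 and 4.69 in jnk1-/- controls. In ventilated wild-type lungs Plau had 3.09, 2.81, 1.14 and 3.80, against 3.74, 3.97 and 3.60 in wild-type controls. All 5 floor arrays were ventilated, and the groups overlapped. The estimates of -1.10 in jnk1-/- lungs (-2.54 to 0.34, limma adjusted p = 0.325) and -1.06 in wild-type lungs (-2.50 to 0.38, limma adjusted p = 0.408) were not called, and with the authors' normalized values they were -0.51 in jnk1-/- lungs and -0.26 in wild-type lungs. Averaged over the genotypes the estimate was -1.08 (-2.10 to -0.06, limma adjusted p = 0.144), or -0.39 with the authors' values. Thrombospondin 1 (Thbs1), an adhesive protein that platelets release, was at that floor on 13 of 14 arrays, so no fold change is given. The array above it was ventilated wild-type replicate 2, with 3.76.

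Between genotypes Procr stood apart. Procr, whose product holds protein C on endothelium, had 5.97, 6.61, 6.36 and 6.17 in ventilated jnk1-/- lungs, against 5.06, 5.29, 5.52 and 4.61 in ventilated wild-type lungs. In controls it had 6.04, 6.01 and 6.33 in jnk1-/- lungs, against 4.72, 5.14 and 5.41 in wild-type lungs. All 7 jnk1-/- arrays lay above all 7 wild-type arrays, which held for 0.520% of all probes. Within ventilated lungs this separation held for 3.83% of probes and within controls for 16.1%.

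Procr was 2.23-fold higher in jnk1-/- than in wild-type lungs after ventilation (log2 1.16, SE 0.23, 0.65 to 1.66, limma adjusted p = 0.0501) and 2.05-fold higher in controls (log2 1.03, SE 0.27, 0.45 to 1.62, limma adjusted p = 0.0523). Neither passed the threshold, so 0 of 8 members were called in each comparison, where 0.612% of all probes were called in ventilated lungs and 4.02% in controls. At an unadjusted p under 0.05 there were 2 members in ventilated lungs, Procr and Plaur, and 1 in controls, Procr. The mean of both genotype differences, a comparison chosen after these values were seen, was 1.10 log2 units (SE 0.18, 0.71 to 1.48, fold 2.14, limma adjusted p = 0.00633), and 2.04% of all probes were called higher in it. That value was called in all 23 alternatives, with 1.0 as the lowest and 1.28 as the highest. Ventilation left Procr within 0.15 log2 units (-0.39 to 0.69) of controls in jnk1-/- lungs and 0.03 (-0.51 to 0.57) in wild-type lungs.

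Marker levels of other cell types stand beside the Procr values. Of 14 endothelial markers measured, limma called 0 between genotypes in ventilated lungs and 0 in controls (0 and 1 at an unadjusted p under 0.05), and their summed log2 level was 13.48 to 13.88 in ventilated jnk1-/- lungs, against 13.42 to 13.78 in ventilated wild-type lungs. In controls it was 13.46 to 13.60 in jnk1-/- lungs, against 13.71 to 13.77 in wild-type lungs. Muscle and squamous markers were not called between the genotypes in ventilated lungs (0 of 7 and 0 of 5 by limma, 1 and 0 at an unadjusted p under 0.05). Alveolar epithelial markers were higher in jnk1-/- lungs for 3 of 7 when both conditions were averaged (6 of 7 at an unadjusted p under 0.05). Their summed log2 level was 15.17 to 15.58 in ventilated jnk1-/- lungs, against 14.94 to 15.14 in ventilated wild-type lungs, and 15.10 to 15.57 in jnk1-/- controls, against 14.75 to 15.02 in wild-type controls, with no overlap in either condition. The part of these cell types in the Procr value was not tested.

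**Figure D3:**
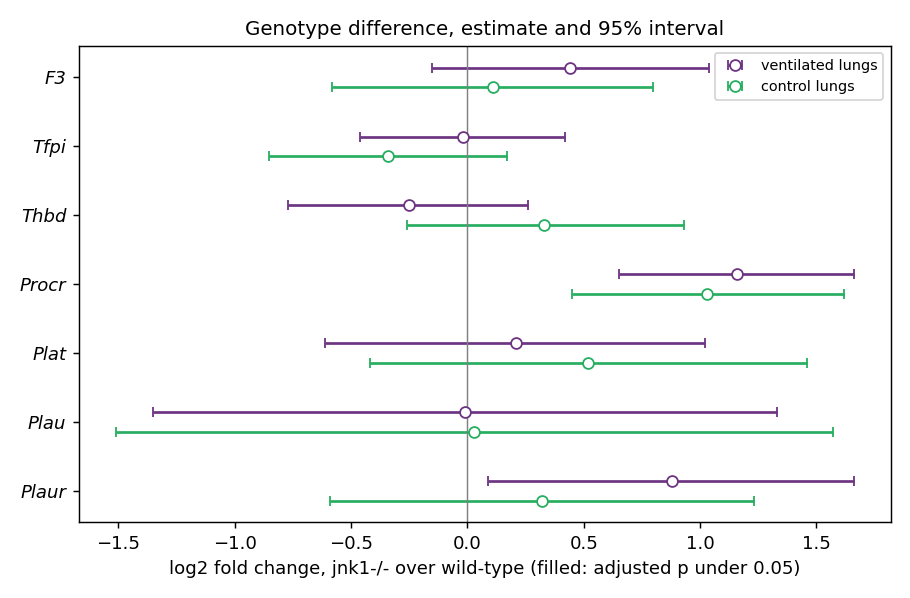
Log2 fold change of jnk1-/- over wild-type lungs (horizontal axis) for 7 members, in ventilated and control lungs, with 95% intervals from limma; no point passed an adjusted p of 0.05. Procr stands at 1.16 in ventilated lungs and 1.03 in controls, and of the other intervals that of Plaur in ventilated lungs (0.09 to 1.66) leaves out 0.

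Plaur averaged 9.73 ± 0.81 (SD, n = 4) in ventilated jnk1-/- lungs and 8.85 ± 0.47 (SD, n = 4) in ventilated wild-type lungs, a difference of 0.88 log2 units (SE 0.36, 0.09 to 1.66, limma adjusted p = 0.405), and the groups overlapped. The ventilation effect itself did not differ detectably between genotypes for any member. The effect in jnk1-/- lungs minus that in wild-type lungs was 0.33 for F3 (-0.58 to 1.24), 0.55 for Plaur (-0.65 to 1.76), -0.32 for Plat (-1.56 to 0.93) and 0.12 for Procr (-0.65 to 0.89). By limma 0 of 8 members were called and 0 had an unadjusted p under 0.05, where 0.382% of all probes were called. Differences of the size of 1 log2 unit thus remain within the intervals of F3, Plaur and Plat. The comparisons of ventilation and genotype share arrays, so their values are not independent.

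Other genes of clotting and fibrinolysis were taken from 4 fixed lists of 60 genes, of which 53 were measured. In jnk1-/- lungs 6 of the 53 were called higher and 1 lower after ventilation, with a median of 0.08 log2 units (all probes -0.04), where 7.04% of all probes were called higher and 5.06% lower. In wild-type lungs 3 were called higher and 1 lower, with a median of 0.17 (all probes 0.11), where 2.20% of all probes were called higher and 1.23% lower. Selp, the P-selectin that platelets and endothelium put on their surface, rose in both genotypes. It had 8.98, 9.07, 8.38 and 8.68 in ventilated jnk1-/- lungs, against 6.26, 6.20 and 6.54 in jnk1-/- controls (log2 2.44, SE 0.22, limma adjusted p = 0.000126). In ventilated wild-type lungs Selp had 8.17, 8.41, 8.50 and 7.71, against 6.10, 5.95 and 5.93 in wild-type controls (log2 2.21, SE 0.22, limma adjusted p = 0.000497).

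Among 18 clotting factors, F13a1, which crosslinks fibrin, was called in wild-type lungs (9.06 ± 0.44 ventilated, n = 4, and 6.87 ± 0.43 control, n = 3, SD; log2 2.19, limma adjusted p = 0.0282). Vkorc1, the vitamin K reductase, fell by 0.75 log2 units there (limma adjusted p = 0.0188). These wild-type calls held in 10 of 19 alternatives for F13a1 and 9 of 19 for Vkorc1. In jnk1-/- lungs limma called 0 of the 18 (3 at an unadjusted p under 0.05). Low signal limits this count: 7 of the 18 were at the floor of the authors' table on every ventilated jnk1-/- array, and 5 on every jnk1-/- control array. There F13a1 lay between 7.27 and 9.54 in ventilated mice and between 7.01 and 7.62 in controls. Vkorc1 changed by -0.46 log2 units in jnk1-/- lungs (limma adjusted p = 0.0624). Averaged over the genotypes the change was 1.7 for F13a1 (limma adjusted p = 0.00564) and -0.6 for Vkorc1 (limma adjusted p = 0.00287). The averaged calls held in 22 of 23 alternatives for F13a1 and 23 of 23 for Vkorc1. Of 11 genes of fibrinolysis, Lrp1, the receptor that clears plasminogen activators, rose by 1.40 log2 units in jnk1-/- lungs (limma adjusted p = 0.000512) and by 0.82 in wild-type lungs (limma adjusted p = 0.0211). The Lrp1 call held in 19 of 19 alternatives in jnk1-/- lungs and in 8 of 19 in wild-type lungs. Plgrkt was called lower only when the genotypes were averaged (log2 -0.8, limma adjusted p = 0.0263). That call held in 16 of 23 alternatives. The basement membrane protein Nid1 rose by 0.98 in jnk1-/- lungs (limma adjusted p = 0.00796). Of 11 anticoagulants and cofactors, Entpd1, an ectonucleotidase that removes ADP, rose by 0.94 in jnk1-/- lungs (limma adjusted p = 0.0245). Of 13 protease-activated and platelet receptors, F2r, the thrombin receptor PAR1, rose by 1.16 (limma adjusted p = 0.0217) and Itgav by 0.96 (limma adjusted p = 0.0178) in jnk1-/- lungs. F2rl2 was called lower there (2.20 to 3.32 in ventilated lungs, against 3.73 to 5.01 in controls, limma adjusted p = 0.0141). All 4 ventilated arrays were at the floor of the authors' table, so no fold change is given, and the call held in 14 of 19 alternatives. F2r and Entpd1 lie outside the rule for named genes and were added after their values were seen. Lrp1, Nid1 and Itgav were lower in jnk1-/- than in wild-type controls (means 9.79 against 10.46, 8.44 against 9.07, 9.12 against 9.91) but not called. Their ventilated means were 11.2 against 11.27, 9.42 against 9.32 and 10.07 against 9.84, so their jnk1-/- rises include this lower start. For F2r and Entpd1 that control difference was -0.16 and -0.11 log2 units. Averaged over the genotypes, 9 of the 53 were called higher and 3 lower, where 9.19% of all probes were called higher and 6.74% lower. For a difference of the ventilation effect limma called 0 of the 53 (7 at an unadjusted p under 0.05).

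**Figure D4:**
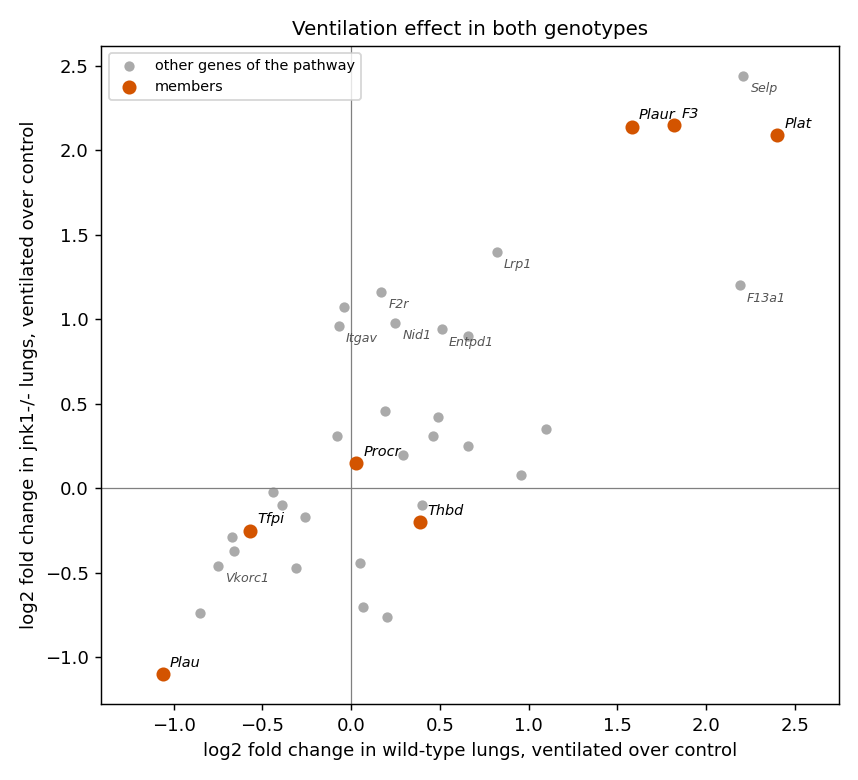
Log2 fold change of ventilated over control lungs in wild-type mice (horizontal axis) and jnk1-/- mice (vertical axis), for 7 members (orange) and 29 other genes of the fixed lists that were at the authors' floor on no array (grey); grey names mark genes called in either genotype. Plat, F3, Plaur and Selp stand at the upper right, with values of 1.58 or more in both genotypes.

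Between genotypes 1 of the 53 list genes was called higher and 1 lower in ventilated jnk1-/- lungs, and 2 higher and 0 lower in jnk1-/- controls. Over all probes, 0.612% were called in either direction in ventilated lungs and 4.02% in controls. S100a10 was higher in both. Its product pairs with annexin A2 and binds plasminogen and its activator at the cell surface. S100a10 had 11.51, 11.64, 11.56 and 11.55 in ventilated jnk1-/- lungs, against 8.96, 9.73, 9.32 and 9.28 in ventilated wild-type lungs (log2 2.25, SE 0.18, fold 4.75, limma adjusted p = 6.67e-05). In controls it had 11.76, 11.51 and 11.94 in jnk1-/- lungs, against 9.69, 9.33 and 9.72 in wild-type lungs (log2 2.15, SE 0.21, fold 4.45, limma adjusted p = 0.000254). The genotypes did not overlap in either condition. Gp9, a subunit of the platelet receptor for von Willebrand factor, was lower in ventilated jnk1-/- lungs (5.30 ± 0.48) than in ventilated wild-type lungs (7.15 ± 0.47, SD, n = 4 each; log2 -1.85, limma adjusted p = 0.0111). Itgb3, a subunit of the platelet fibrinogen receptor, lay between 3.55 and 4.0 in jnk1-/- controls, against 1.76 and 2.94 in wild-type controls (limma adjusted p = 0.0288). All 3 wild-type controls were at the floor of the authors' table, so no fold change is given, and the call held in 8 of 18 alternatives. When both conditions were averaged, 2 of the 53 were called higher and 3 lower in jnk1-/- lungs. Besides Gp9, the lower ones were Gp1bb (log2 -1.46, limma adjusted p = 0.0252, called in 17 of 23 alternatives) and Fga (limma adjusted p = 0.03, 11 of 22). Fga was at the floor of the authors' table on 12 of 14 arrays, so no fold change is given. Gp9 and Gp1bb are also platelet markers. Of 10 such markers measured, 6 were called lower in jnk1-/- lungs when both conditions were averaged, where 374 of all 19621 probes were called lower. The summed log2 level of the 10 markers was 10.03 to 10.41 in ventilated jnk1-/- lungs, against 11.13 to 11.64 in ventilated wild-type lungs. In controls that sum was 10.37 to 10.65 in jnk1-/- lungs, against 11.31 to 11.84 in wild-type lungs.

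The members that rose with ventilation moved together between conditions more than between animals of a group. Over 14 arrays Pearson's r was 0.803 for F3 with Plaur, 0.904 for F3 with Plat and 0.842 for Plaur with Plat. After the group means were taken away, r was -0.362, 0.301 and 0.204, so the pooled values rest on the separation of ventilated from control arrays. The named genes most like each of them over the 14 arrays, among 8366 candidates above the median intensity, were Asns (r = 0.965) and Txnrd1 (r = 0.963) for F3. For Plaur they were Ndrg1 (r = 0.970) and Tnfrsf12a (r = 0.961), and for Plat Ddit4 (r = 0.953) and Tmem213 (r = 0.951). Within groups these values were 0.664, 0.683, 0.847, 0.776, 0.627 and 0.899 in the same order. They are descriptions over arrays that share the same 4 groups. Because the genes were picked for a high r on these arrays, their values within groups can be raised by that choice.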

How the data were processed

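Lung RNA of 14 mice was hybridised to CodeLink mouse arrays, 1 array per animal. The authors deposited log2 intensities of 19621 probes per array without normalization between arrays (lowest value -6.861), and a second table of log2 values that they normalized, with a floor of 3.12 that holds 24.5% of values. The filter on spot quality that the methods name was not applied here. The deposited values were brought together by cyclic loess over all array pairs (span 0.7, 3 iterations), as the methods name, the lowest values being left out of the curves, with a floor at the 1st percentile (-0.65). The fit was 1 model of the 4 group means (limma 3.58.1 in R 4.3.3, lmFit with eBayes). Probe names came from the platform annotation (15353 probes name 1 gene, 91 several, 4177 none). Precision is limited by how many arrays there are.

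Named genes are every member with a probe, each by its brightest probe (1 probe each here), list genes past the threshold (at most 4 a direction and comparison, by adjusted p) and, for members that changed with ventilation, the 2 most correlated genes. The members and lists were chosen with earlier results of these data known. Sequences are from RefSeq. The steps were tested on simulated data. Figures were drawn in matplotlib 3.10.9. Normalization, value table, dim probes, floor, block, weights, left-out arrays and the test were varied. Control arrays were also averaged in pairs (wild-type replicates 2 and 3, jnk1-/- replicates 1 and 2). Replicate numbers were not treated as pairs in the main fit.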

Additional observations from a re-analysis of the deposited data

Results flagged for a closer look

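In 16 groups of 4 arrays, 2 single values stood apart from the other 3 by more than the spread of a group of that size normally allows, and chance flags about 1 in 20 groups. Plat was 5.95 in ventilated wild-type replicate 4, against 6.97 to 7.08 in the other ventilated wild-type lungs. Plau was 1.06 in ventilated jnk1-/- replicate 2, against 3.16 to 3.30 in the others of its group, and that array was at the floor of the authors' table for this probe.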

How the results depend on the processing

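Averaged over genotypes, F3, Plaur and Plat were called higher after ventilation in all 23 alternatives, with 3 of 8 members called whenever 1 array was left out. In wild-type lungs 3 members were called: leaving out 1 array gave 2 to 3, the methods' t-test with Benjamini-Hochberg adjustment gave 0 (2 of all probes called, and 3 members at its unadjusted p), and leaving out wild-type control replicates 2 and 3 together, chosen after the data were seen, gave 0 with 1 wild-type control left. In jnk1-/- lungs 3 were called, and 1 (Plat) by the methods' t-test with adjustment. Other settings changed calls too. Of 19 alternatives, F3 was called in 18, Plaur in 17 and Plat in 19 in jnk1-/- lungs. In wild-type lungs F3 was called in 17, Plaur in 7 and Plat in 16 of 19. Between genotypes 0 members were called, also by the methods' t-test with adjustment. In controls 1, Procr, was called with quantile normalization, fast cyclic loess, the authors' normalized values, dim probes left out, the replicate block and the methods' t-test at its unadjusted p. In ventilated lungs 1, also Procr, was called with the authors' values, dim probes left out, array weights and the methods' t-test at its unadjusted p. Procr kept its sign in all of these, between 0.82 and 1.40 in controls and 0.99 and 1.29 in ventilated lungs. The causes were not tested.

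The labels do not say whether replicate numbers shared between groups pair animals. Of 19 same-numbered pairs 0 had a correlation of deviations over 0.1 (-0.0521 to 0.0908). A pair with different numbers reached 0.128, and weak correlations over all probes cannot settle whether animals were paired. With the replicate block, the calls over all probes were 1307 in place of 2374 for ventilation in jnk1-/- lungs and 307 in place of 673 in wild-type lungs, and 55 in place of 120 between ventilated genotypes. Plaur in wild-type lungs was then not called (log2 1.78, limma adjusted p = 0.0529). The median of all probes of a gene could not differ, as each member has 1 probe, and Thbs1 drops out with dim probes. Of 32 called results of the fixed lists, 32 kept their sign in all alternatives and 7 were called in all of them. Low signal limits Plau and Thbs1.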
